A study of Homo sapiens and Mus musculus with 10 samples.

Results

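This account follows 9 genes, VCP, UFD1, NPLOC4, FAF1, FAF2, NSFL1C, UBXN1, UBXN4 and PLAA, through the RNA of HEK293T cells under stress. VCP encodes the ATPase p97 and the others encode proteins that bind it. They were chosen by name, as the rows of the count tables whose symbol is that of a member, and make up 9 of 16619 symbols. The submitters describe the data as RNA sequenced after removal of ribosomal RNA, though the kit they name is one for ribosome profiling, and values are read here as RNA levels on that description. The cells were HEK293T, an established human embryonic kidney line. A stress table held 1 wild-type (WT) library each of cells deprived of glucose for 24 h (GD), of cells given 300 nM thapsigargin for 6 h (TG) and of mock-treated cells. A genotype table held 1 library each of cells labelled UFD1s-deficient under GD and mock, and of WT cells under GD and mock. TG empties the calcium store of the endoplasmic reticulum (ER) by blocking its pump. The submitters describe it as inducing ER stress, and GD as inducing metabolic oxidative stress. The labels do not say what UFD1s is, how it was removed or whether the deficient cells are 1 clone. The other 3 of the 10 libraries, from mouse N2a cells, were not used here.

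p97 is a hexameric ATPase that pulls ubiquitin-tagged proteins out of membranes, complexes and chromatin and threads them through its central pore, after which the proteasome can degrade them. The heterodimer of UFD1 and NPL4, the product of NPLOC4, brings it to proteins with ubiquitin chains. In ER-associated degradation, misfolded proteins are drawn through the ER membrane in this way, with membrane-bound cofactors holding p97 at the site. FAF1, FAF2, UBXN1, UBXN4 and NSFL1C carry a UBX domain that docks on p97, while PLAA binds it through another domain.

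The libraries held 11461365 to 19024327 reads in table rows. Pre-ribosomal RNA45S rows took 7.73% to 10.7% of reads in the stress table. The genotype table gave 0%, and its lowest row sum was 75 reads. That 0% therefore stands for the lack of such a row, and the share of this RNA in those libraries is not known. Levels are given as CPM, which relate reads to library size, scaled with TMM (trimmed mean of M values) factors over the 10368 transcripts found in both tables, which leave that RNA out. Of 11 genes known in HEK293T cells, 9 had a row and summed to between 1169 and 1968 CPM, with PAX2 and WT1 having none. Their sum was higher under GD than under mock in each of the 3 pairs of libraries, at 1796, 1883 and 1968 CPM under GD against 1621, 1710 and 1493 CPM under mock (deficient, WT of the genotype table, WT of the stress table). Markers of other cell types summed to 21.6, 9.69 and 5.88 CPM under GD and to 38.3, 27.8 and 14.1 CPM under mock in the same order. Most of that sum was the collagen gene COL3A1, while ALB, PECAM1 and EPCAM stayed under 1 CPM in the stress table, with no row in the other, and PTPRC, CD14 and HBB had no row in either. The part of these sums in the results below was not tested. All 6 genes of the ER stress response used as a check were higher under GD in the fit described below, and all 6 were past 2-fold in TG.

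Each symbol had 1 row per table, for 1 RefSeq transcript. For VCP (NM_007126.3), NPLOC4 (NM_017921.2), FAF1 (NM_007051.2), FAF2 (NM_014613.2), UBXN1 (NM_015853.3), UBXN4 (NM_014607.3) and PLAA (NM_001031689.2) that transcript was the same in both tables. For UFD1 and NSFL1C it was not. UFD1 was counted as NM_001035247.2 in the stress table and as NM_005659.6 in the genotype table. NSFL1C was counted as NR_038164.1 in the stress table, a transcript that GENCODE release 29 types as a target of nonsense-mediated decay, and as the protein-coding NM_016143.4 in the genotype table. Across both tables, 1122 of 11477 symbols (9.78%) differed in this way. A transcript row need not hold all reads of its gene: in WT mock of the stress table, rows of genes with 1 protein-coding RefSeq transcript had a median of 282 reads, and rows of genes with 2 or more had a median of 63 reads. The same medians in WT mock of the genotype table were 617 and 191 reads.

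The UFD1 transcripts show how much of a row's sequence can be shared with the row not counted. In GENCODE release 29 (GRCh38) both lie on the minus strand, NM_005659.6 at chr22:19449910-19479215 and NM_001035247.2 at chr22:19450621-19479172. Each has 12 exons, and exons 2 to 10 have the same ends in both. NM_005659.6 is 1814 bases long, with 924 coding bases including the stop codon, and NM_001035247.2 is 1007 bases long, with 801. The last exon has 835 bases in NM_005659.6 and 124 bases in NM_001035247.2. Exon 11 is the internal exon in which they part, and it is shown 5′ to 3′ for that reason, with the 53 bases that NM_005659.6 alone carries in capitals. It lies at chr22:19454749-19454830 in NM_005659.6 and at chr22:19454802-19454830 in NM_001035247.2.
UFD1 NM_005659.6 exon 11: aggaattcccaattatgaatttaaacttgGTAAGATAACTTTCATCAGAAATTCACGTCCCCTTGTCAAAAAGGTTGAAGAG
UFD1 NM_001035247.2 exon 11: aggaattcccaattatgaatttaaacttg
A read from exons 2 to 10 matches both transcripts. How the authors assigned such a read to a row is not given in the sources used here, nor is their use of strand.

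**Figure D1:**
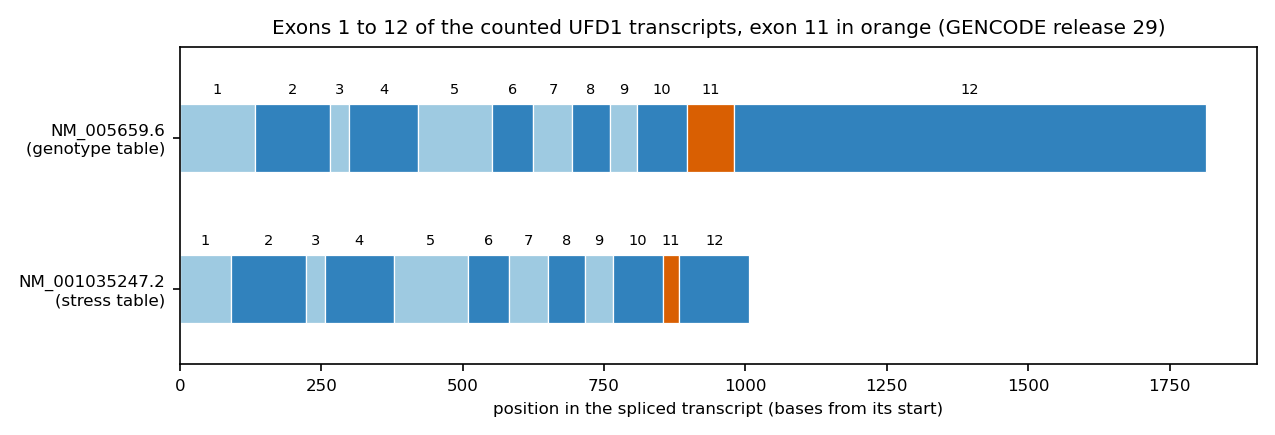
The 12 exons of the UFD1 transcript counted in each table, drawn to scale along the spliced transcript in bases from its start, with exon 11 in orange and the other exons in alternating blues. Exon 11 has 82 bases in NM_005659.6 (top) and 29 bases in NM_001035247.2 (bottom), and exon 12 has 835 and 124 bases.

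Per length, VCP stood above all other members in all 7 libraries. Its level per kilobase of transcript ran from 147 to 303 CPM per kb, which overlaps the range of no other member. NPLOC4 (57.0 to 90.8 CPM per kb), UBXN4 (52.2 to 92.9), UBXN1 (33.5 to 87.3) and FAF2 (37.9 to 61.5) came next, and their ranges over the 7 libraries overlap. FAF1 lay at 24.3 to 41.1 CPM per kb and PLAA at 17.2 to 24.9 CPM per kb. The FAF1 range overlaps those of UBXN1, FAF2 and PLAA. In TG, FAF1 at 40.5 CPM per kb lay above UBXN1 at 37.3 CPM per kb. PLAA was the lowest of these 7 genes in every library. The UFD1 row of the genotype table reached 5.29 to 9.15 CPM per kb and its NSFL1C row 0.434 to 1.14 CPM per kb. Like all values here, these are levels of 1 transcript row and need not be those of the whole gene. Lengths are those of the linked GENCODE release 29 transcripts.

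**Figure D2:**
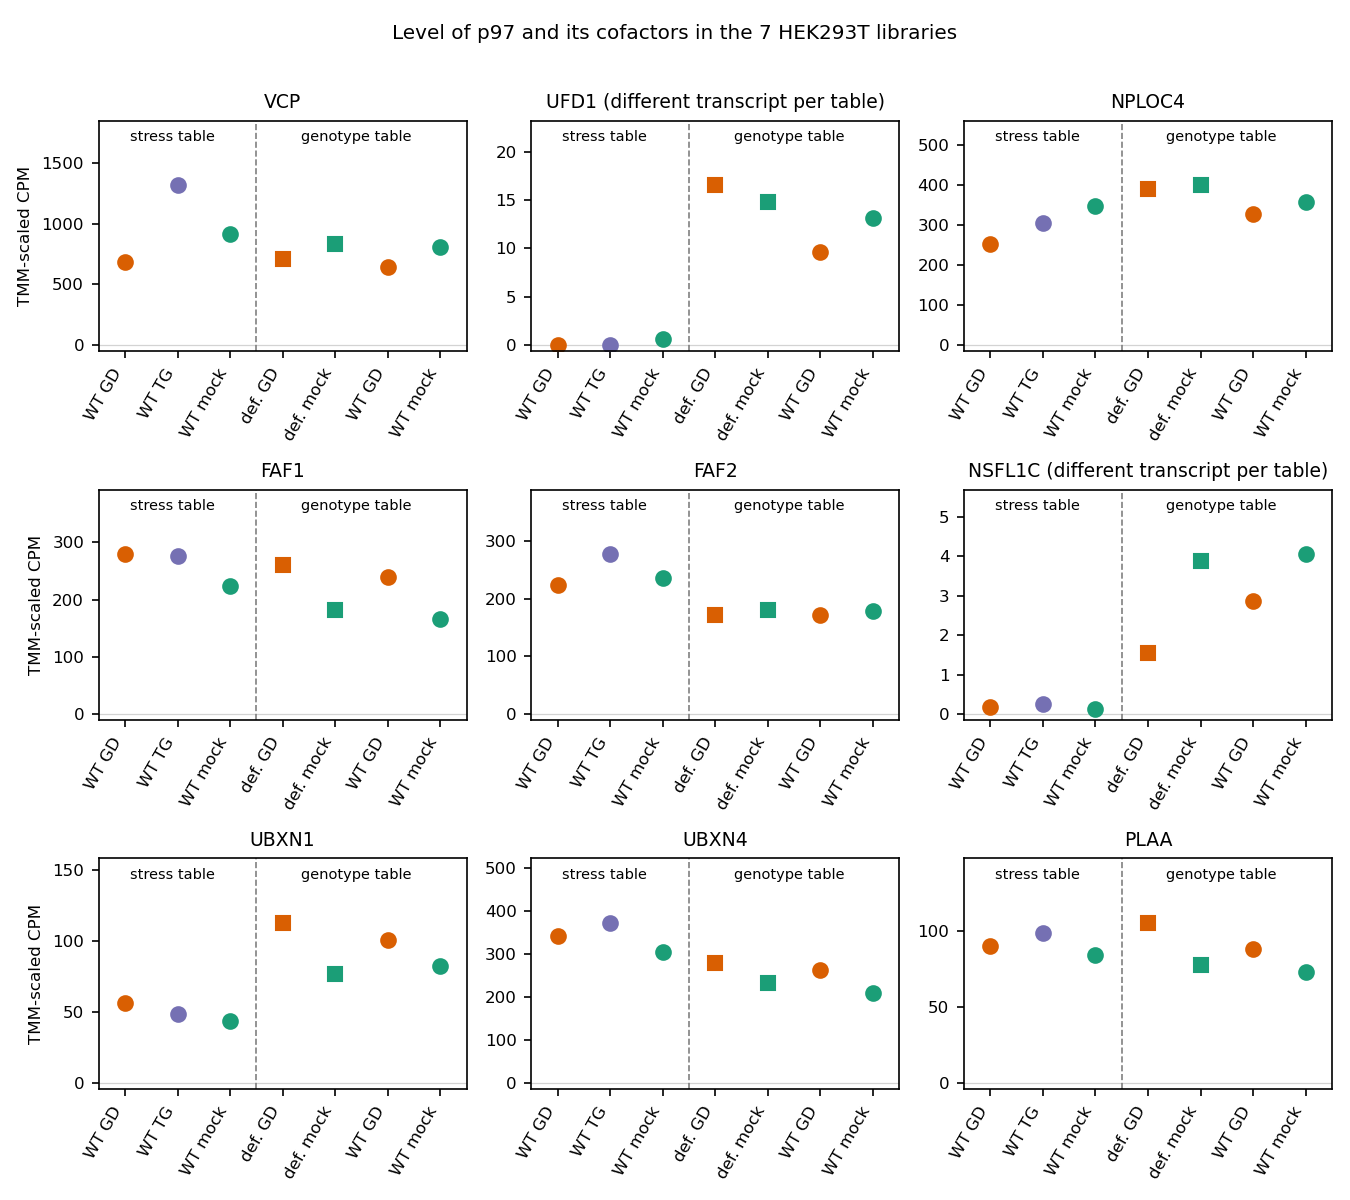
Level of each member in each of the 7 HEK293T libraries, in TMM-scaled CPM on a linear axis of its own, with GD in orange, TG in violet, mock in green, squares for UFD1s-deficient (def.) and circles for WT cells. VCP is highest in TG at 1324 CPM, and the dashed line parts the tables, between which UFD1 and NSFL1C change transcript.

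The tables also differed in the level of the same transcript under the same label. In WT mock cells UBXN1 was lower in the stress table than in the genotype table by 0.93 on the log2 scale, and UBXN4, FAF1 and FAF2 were higher by 0.54, 0.43 and 0.40. PLAA and VCP differed by 0.20 and 0.17 and NPLOC4 by -0.04. The median absolute difference over all shared transcripts was 0.38, which the first 4 of these exceeded. With 1 library per condition and table, a difference between cultures and one between preparations cannot be told apart. Changes were therefore measured within a table.

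Under GD, p97 RNA was lower and the RNA of FAF1 and UBXN1 was higher than under mock. The test was edgeR's quasi-likelihood test over the 6 GD and mock libraries with table and genotype as terms, adjusted over 10368 transcripts by the Benjamini-Hochberg method. Its error starts from how far the GD response varied between the 3 pairs (2 residual degrees of freedom). edgeR moderates this with the spread of all transcripts, so the SE of a member is not that of its own 3 pairs alone. Of the 7 members counted alike in both tables, 3 passed an adjusted p of 0.05, 2 of them higher and 1 lower. Over all transcripts 20.9% passed, 9.75% higher and 11.1% lower, so 3 of 7 came from a comparison in which calls were common. The median log2 change was 0.25 over the 7 members and -0.02 over all transcripts.

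VCP had 8286, 7178 and 7504 reads in GD libraries, against 11206, 10385 and 14504 reads in mock libraries, in the order deficient, WT of the genotype table, WT of the stress table that is kept for the other members. In CPM these were 712, 644 and 689 under GD against 836, 813 and 914 under mock. Every GD library lay below every mock library. The ratios of GD to mock were 0.852, 0.792 and 0.754, and VCP fell by 0.33 on the log2 scale (SE 0.085, 3 pairs; edgeR adjusted p = 0.0262).

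NPLOC4, which encodes the partner of UFD1, had 391, 329 and 252 CPM under GD and 401, 358 and 348 CPM under mock. It was lower under GD in each pair, but the groups overlap, since deficient GD cells had more than either WT mock library. Its ratios were 0.976, 0.920 and 0.723, which spread more than those of VCP. The log2 change was -0.21 (SE 0.10) and did not pass the test (edgeR adjusted p = 0.176).

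FAF1 links p97 with UFD1 and NPL4 to ubiquitin-tagged proteins and is also known from Fas-driven cell death. It had 3031, 2663 and 3053 reads in GD libraries, against 2447, 2117 and 3552 reads in mock libraries, or 261, 239 and 280 CPM under GD against 183, 166 and 224 CPM under mock. Every GD library lay above every mock library once scaled for depth. The ratios were 1.43, 1.44 and 1.25, and FAF1 rose by 0.45 on the log2 scale (SE 0.087; edgeR adjusted p = 0.00733).

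UBXN1, a small soluble UBX protein that binds ubiquitin chains, had 113, 100.3 and 56.4 CPM under GD against 76.5, 82.4 and 43.3 CPM under mock. It was higher under GD in each pair, while the 2 tables lay so far apart that the groups overlap. The ratios were 1.47, 1.22 and 1.30, and it rose by 0.41 on the log2 scale (SE 0.10; edgeR adjusted p = 0.0207).

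The other 3 did not pass in that fit. UBXN4, which holds p97 at the ER membrane, had ratios of 1.20, 1.25 and 1.12 and a log2 change of 0.25 (SE 0.084; edgeR adjusted p = 0.0618). With DESeq2's size factors in edgeR it passed, at a log2 change of 0.27 (adjusted p = 0.0430). PLAA, the human counterpart of the yeast ubiquitin-recycling factor Doa1, had 105, 87.9 and 89.7 CPM under GD against 77.4, 72.8 and 83.8 CPM under mock. All 3 GD values of PLAA lay above all 3 mock values. Its ratios were 1.36, 1.21 and 1.07, and its log2 change of 0.27 did not pass (SE 0.10; edgeR adjusted p = 0.0907). FAF2, a UBX protein of the ER and of lipid droplets, had ratios of 0.954, 0.965 and 0.952, and the counting interval of each held 1. Its log2 change was -0.06 (SE 0.082; edgeR adjusted p = 0.617).

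All 7 members had the same direction in 3 of 3 pairs, 4 of them higher under GD and 3 lower. Over the 8588 transcripts with a mean of 50 or more reads in the 6 libraries, 28.4% were higher in all 3 and 30.0% lower in all 3. The directions held under every scaling tried, and the sizes were small, with no member of the 7 past 2-fold in any pair, where 6.22%, 6.74% and 7.18% of transcripts were, in the same order. The calls depended on the genotype table. Without its deficient GD, deficient mock, WT GD or WT mock library, VCP had an edgeR adjusted p of 0.177, 0.183, 0.245 and 0.227 in that order, and FAF1 of 0.118, 0.116, 0.0701 and 0.0621. UBXN1 lost its call without the first 3 of these libraries, at 0.240, 0.229 and 0.0566, and kept it without the last, at 0.0475. The changes behind these lost calls stayed near those of the 6 libraries, at log2 values of -0.37 to -0.31 for VCP, 0.42 to 0.43 for FAF1 and 0.33 to 0.48 for UBXN1, with 1 residual degree of freedom in place of 2. In the 4 WT libraries alone no member was called in edgeR, where 490 transcripts were. Without the stress GD or the stress mock library the 3 calls stayed and UBXN4 and PLAA were called too.

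**Figure D3:**
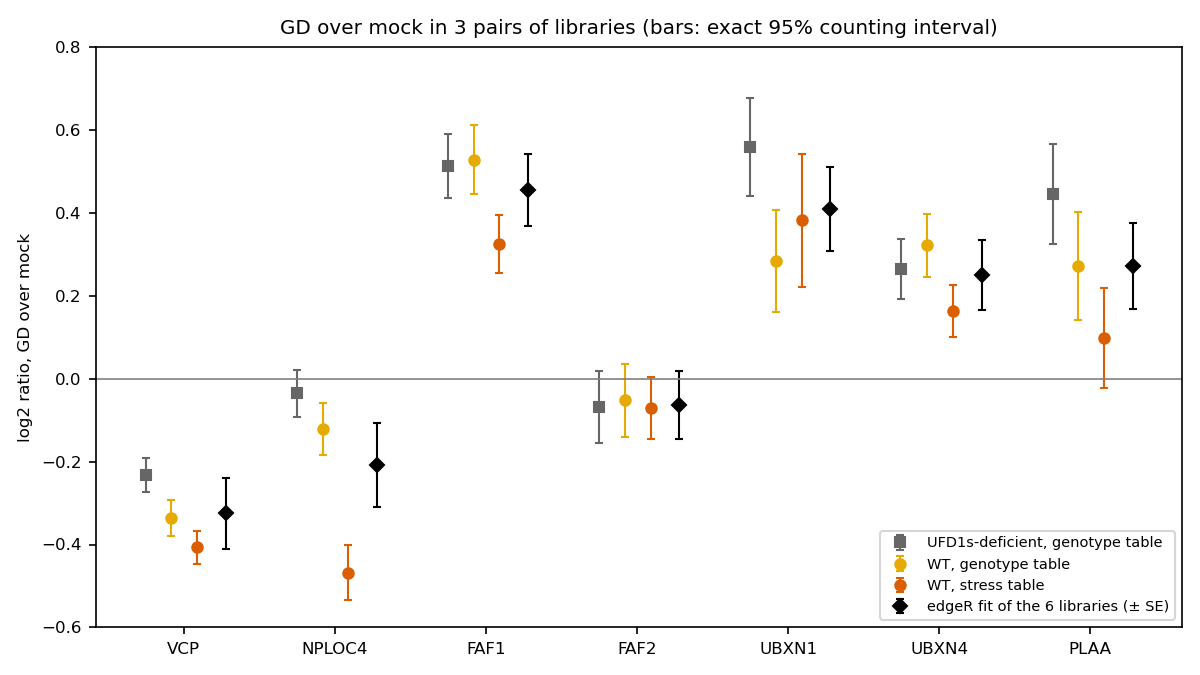
Change of 7 members under GD, as the log2 ratio of GD to mock in each of 3 pairs of libraries with exact 95% intervals for counting error, and as the edgeR estimate of the 6 libraries with its standard error (black diamonds). VCP lies below 0 and FAF1, UBXN1 and UBXN4 lie above 0 in all 3 pairs, and the NPLOC4 ratio reaches down to 0.723 in the stress table and lies at 0.976 in deficient cells.

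UFD1 and NSFL1C could be followed under GD only within a table. The UFD1 row of the genotype table (NM_005659.6) had 193 reads in deficient GD cells against 199 in deficient mock cells, and 107 reads in WT GD cells against 168 in WT mock cells. Scaled for depth, the ratio of GD to mock was 1.12 in deficient cells (95% counting interval 0.912 to 1.37) and 0.730 in WT cells (0.567 to 0.936). The interval lay below 1 in WT cells and held 1 in deficient cells, and over both genotypes the log2 change was -0.13 (SE 0.20; edgeR adjusted p = 0.673 in that table alone). The UFD1 row of the stress table (NM_001035247.2) had 0 reads in GD, 0 in TG and 10 in mock. Against a floor of 3 counts per library, and with the 10 mock reads taken as counted, GD was at least 2.29-fold lower and TG at least 3.45-fold lower than mock. These bounds leave out the counting error of the 10 reads. With it, the exact upper limits of the ratios to mock were 0.650 for GD and 0.431 for TG, which allow smaller differences, and no library repeats the condition.

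NSFL1C encodes p47, a cofactor known for the fusion of Golgi membranes after cell division. Its genotype row (NM_016143.4) had 18 reads in deficient GD cells against 52 in deficient mock cells, and 32 reads in WT GD cells against 52 in WT mock cells. The ratios were 0.399 (0.220 to 0.693) in deficient cells and 0.705 (0.439 to 1.12) in WT cells. In the genotype table it was the member with the largest GD fold and the fewest reads, and its change in deficient cells was the 1 GD change among the 9 members that met the 2-fold rule in any pair. In that pair 6.22% of transcripts met it. In the genotype table alone the log2 change was -0.89 (SE 0.43) and did not pass (edgeR adjusted p = 0.120). Its stress row (NR_038164.1) had 2 reads in GD, 4 in TG and 2 in mock, with ratios to mock of 1.46 (0.106 to 20.1) for GD and 1.93 (0.277 to 21.4) for TG. No difference was detectable at that depth.

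Read within the genotype table alone, a reading added after the data were seen, the same edgeR test called 5 of 9 members under GD, where 32.9% of 11975 transcripts were called. These were VCP, FAF1, UBXN1, UBXN4 (adjusted p = 0.000714) and PLAA (adjusted p = 0.00299). Its 1 residual degree of freedom is the difference between the deficient and the WT response. As edgeR moderates that with the spread of all transcripts, most of the error of a member comes from other transcripts.

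In the 1 TG library, p97 RNA was higher than in its mock library. VCP had 21758 reads in TG and 14504 in mock, or 1324 CPM against 914 CPM, a ratio of 1.45 (95% counting interval 1.42 to 1.48). This was the highest VCP level of the 7 libraries. The ratios of FAF1 at 1.23, UBXN4 at 1.22, FAF2 at 1.18 and PLAA at 1.18 were smaller, and that of UBXN1, at 1.11, had an interval (1.01 to 1.24) that comes close to 1. NPLOC4 had 5004 reads in TG against 5529 in mock and was lower, at a ratio of 0.875 (0.842 to 0.909).

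There was 1 TG library, so these ratios have no replicate check. None of the 7 members was past 2-fold, the size rule used for single libraries (with at least 50 reads in the higher library), while 8.11% of 9116 transcripts were. The median log2 ratio was 0.24 over the 7 members and 0.01 over all transcripts. Scaling by library totals lowered the TG median of all transcripts to -0.10 and left 6 of the 7 members above 0. In an edgeR fit of 7 libraries VCP alone of the 7 passed, at a log2 change of 0.58 (SE 0.13; adjusted p = 0.0297). That fit takes its whole spread from the GD and mock libraries and assumes that the lone TG library varies like them, so it is no check on TG by replicates. In that fit 8.15% of transcripts passed, 5.13% higher. The other 6 had adjusted p between 0.135 and 0.835.

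VCP had its highest level of the 7 libraries in TG and its 3 lowest levels in GD. TG and GD of the stress table share their mock library, so the ratios are set side by side. VCP stood at 1.45 in TG and 0.754 in GD, NPLOC4 at 0.875 and 0.723, FAF1 at 1.23 and 1.25, UBXN4 at 1.22 and 1.12, FAF2 at 1.18 and 0.952, PLAA at 1.18 and 1.07, and UBXN1 at 1.11 and 1.30. Set directly against each other, TG had 1.92 times the VCP of GD (1.87 to 1.97). The treatments differ in length, at 6 h for TG and 24 h for GD.

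**Figure D4:**
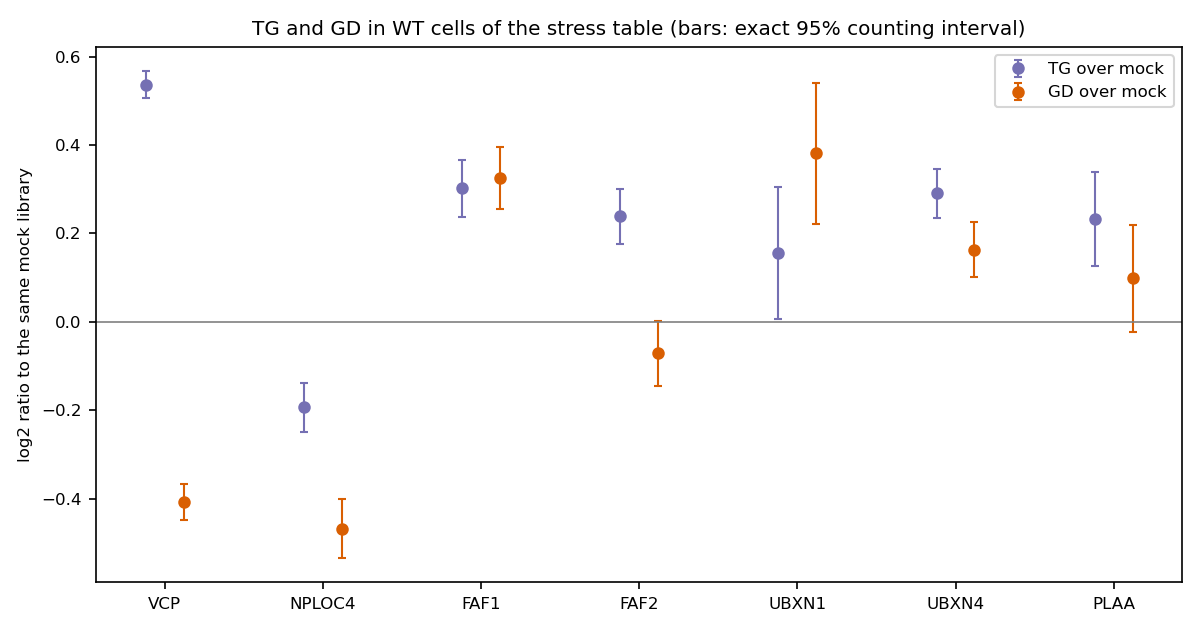
Log2 ratio of TG (violet) and of GD (orange) to the same mock library of WT cells in the stress table, with exact 95% intervals for counting error only. VCP lies at a ratio of 1.45 in TG and 0.754 in GD, and the next widest gaps are those of FAF2 (1.18 and 0.952) and NPLOC4 (0.875 and 0.723).

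For the deficient cells, the UFD1 rows give no check of the label, since the labels do not tie UFD1s to a counted sequence and NM_001035247.2 was not a row of that table. The NM_005659.6 row had 193 reads in deficient GD cells against 107 in WT GD cells, a ratio of 1.73 (1.36 to 2.21). Under mock it had 199 reads in deficient cells against 168 in WT cells, a ratio of 1.13 (0.914 to 1.39). Both were higher in deficient cells, under GD beyond counting error, and UFD1 was the 1 member past 1.5-fold there, with 11.8% of transcripts. NSFL1C, with 18 reads in deficient and 32 in WT cells under GD, fell short of the 50 reads that this rule needs. Over both treatments the log2 difference was 0.47 (SE 0.20) and did not pass in the genotype table alone (edgeR adjusted p = 0.149). In the authors' deposited table the log2 ratio of this row was 0.789 with p = 0.0796 under GD and 0.162 with p = 0.732 under mock.

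None of the 7 members counted in both tables passed the test of deficient against WT cells in the edgeR fit of 6 libraries. That comparison called 1.11% of transcripts, 115 in all, and no member reached an unadjusted p of 0.05 either, where 14.2% of transcripts did. DESeq2, run as an alternative, called 222 transcripts. The largest difference was that of NPLOC4, with 391 CPM in deficient GD cells against 329 in WT GD cells and 401 CPM in deficient mock cells against 358 in WT mock cells. Deficient cells had more NPLOC4 in both pairs, at ratios of 1.19 (1.14 to 1.24) under GD and 1.12 (1.08 to 1.17) under mock. The log2 difference was 0.21 (SE 0.12; edgeR adjusted p = 0.513). In the genotype table alone, where the smaller spread called 13.5% of transcripts, NPLOC4 was called, at a log2 difference of 0.21 (SE 0.055; edgeR adjusted p = 0.0153).

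The other differences over WT in the fit of 6 libraries were 0.18 for PLAA, 0.13 for FAF1, 0.12 for UBXN4, 0.09 for VCP and 0.03 for UBXN1 on the log2 scale, each within 1.5 standard errors of 0. That of FAF2 was -0.0012 and changed sign with the scaling. PLAA had a ratio of 1.20 (1.10 to 1.30) under GD and 1.06 (0.971 to 1.16) under mock. UBXN1 had 1.12 (1.04 to 1.22) under GD and 0.929 (0.852 to 1.01) under mock. Deficient cells thus had more UBXN1 than WT cells under GD and less under mock, the mock interval holding 1. NSFL1C had 18 reads in deficient GD cells and 32 in WT GD cells, a ratio of 0.539 (0.285 to 0.989), and 52 reads in each genotype under mock. No member was past 2-fold in either pair, where 2.75% of transcripts were past it under GD and 2.73% under mock.

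**Figure D5:**
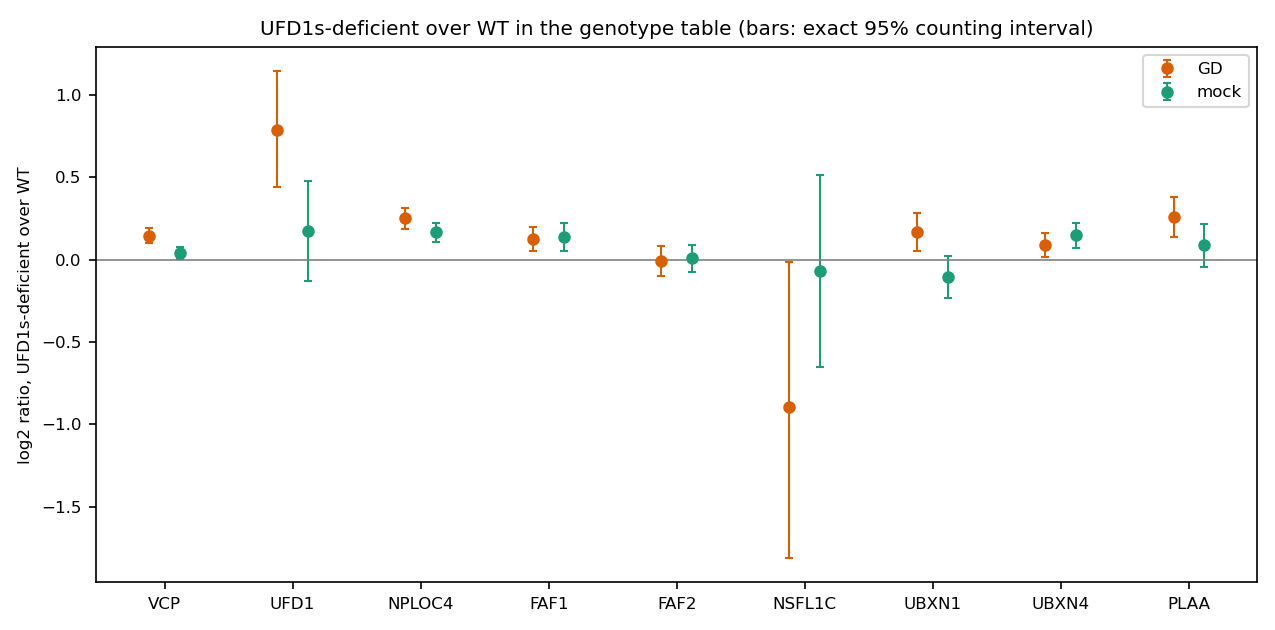
Log2 ratio of UFD1s-deficient to WT cells for the 9 members in the genotype table, under GD (orange) and mock (green), with exact 95% intervals for counting error only. UFD1 lies highest under GD at a ratio of 1.73 and NSFL1C lowest at 0.539 with the widest intervals, while the 7 other members lie between 0.929 and 1.20.

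The GD response itself was compared between genotypes by the interaction term. The log2 difference of the response, deficient minus WT, was 0.26 for PLAA (SE 0.26), 0.26 for NPLOC4 (SE 0.26), 0.23 for UBXN1 (SE 0.26) and 0.14 for VCP (SE 0.26). FAF1, UBXN4 and FAF2 had 0.09, 0.02 and -0.01. The edgeR adjusted p was 1 for each, and 0% of the 10368 transcripts were called by edgeR or by DESeq2, while 123 had an unadjusted p under 0.05 in edgeR. The standard errors are as large as the differences, so a GD response changed by the genotype by 0.26 on the log2 scale was not detectable. This term sets the 1 deficient pair against the WT response pooled over both tables, so table and genotype are mixed in it. Within the genotype table the log2 ratios of GD to mock were 0.51 in deficient and 0.53 in WT cells for FAF1. For UBXN4 they were 0.26 and 0.32, so these members had the opposite sign there, while the others kept theirs. NPLOC4 had -0.04 and -0.12 there, against -0.47 in WT cells of the stress table.

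The wider p97 system was read from 4 lists of partners, in the same fits and with the members left out. The clearest movement was at the ER membrane. The list holds 14 names, and 8 had the same transcript in both tables and were tested. Of these 8 proteins, which gather p97, ubiquitin ligases or their substrates there, 4 rose under GD and 0 fell. Of all transcripts 9.75% were called higher and 11.1% lower. The median log2 change was 0.39 for the 8, against -0.02 over all transcripts. In TG 4 of 7 measured were past 2-fold and higher, where 4.75% of 9116 transcripts were. Their median log2 ratio was 1.36, against 0.01 over all transcripts. DERL1, ERLIN1 and DERL3 had a different transcript in each table and were not tested. Within the genotype table, DERL1 and ERLIN1 were lower under GD in both genotypes and DERL3 was higher. From mock to GD, DERL1 went from 16.1 to 12.2 CPM in WT cells and from 18.95 to 13.7 CPM in deficient cells.

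SEL1L, the adaptor of the ER ubiquitin ligase HRD1, had 322, 292 and 733 CPM in GD libraries against 152, 165 and 222 CPM in mock libraries, in the order used above. Every GD value was above every mock value. SEL1L rose by 1.21 on the log2 scale (SE 0.15; edgeR adjusted p = 0.00109), and in TG it reached 1396 CPM, 6.28 times the mock level. HERPUD1, an ER membrane protein that helps assemble the same machinery and that also stands among the stress check genes, rose by 2.26 under GD (SE 0.45; edgeR adjusted p = 0.00834). Its row was low, with 499 reads in TG and 21 in mock, a ratio of 23.0.

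DERL2, a derlin that takes part in pulling proteins out of the ER, had a ratio of 3.13 in TG and rose by 0.38 under GD (SE 0.11; edgeR adjusted p = 0.0374). SELENOS, a selenoprotein that recruits p97 to derlins, had 196 reads in TG and 74 in mock, a ratio of 2.56, and did not pass under GD (log2 change 0.67, SE 0.29, edgeR adjusted p = 0.130).

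The other lists had fewer calls, read against the same shares of all transcripts (9.75% higher under GD, and 8.11% past 2-fold in TG, 4.75% higher). Of 5 other UBX cofactors tested, UBXN8 rose under GD by 0.56 (SE 0.13; edgeR adjusted p = 0.0144), and 0 of 4 were past 2-fold in TG, where UBXN8 and UBXN2A had the largest log2 ratios at 0.42 and -0.32. Among 8 enzymes and regulators bound to p97, ZFAND2A, a zinc-finger protein induced by arsenite that acts on the proteasome, rose by 1.15 under GD (SE 0.27; edgeR adjusted p = 0.0161). It was also the 1 of 7 past 2-fold in TG, at a ratio of 3.49. Among 6 related AAA ATPases, ATAD1, which extracts misplaced proteins from the mitochondrial outer membrane, rose by 0.55 under GD (SE 0.11; edgeR adjusted p = 0.00797), with a TG ratio of 1.48, and 0 of 6 were past 2-fold in TG.

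No tested member of the 4 lists fell under GD by that test, which left out listed genes without the same transcript in both tables. None passed the test of deficient against WT cells either, in a comparison that called 1.11% of transcripts. The largest genotype differences in the lists were those of HERPUD1 (log2 -0.70, SE 0.54), NVL (0.56, SE 0.51), VPS4A (-0.56, SE 0.13) and YOD1 (0.55, SE 0.16). The first of these rest on few reads. HERPUD1 had 8 reads in deficient and 37 in WT cells under mock, and 91 and 74 under GD, the other way round. NVL had 16 to 31 reads in the genotype table. SEL1L, by contrast, differed by 0.005 on the log2 scale between genotypes (SE 0.18).

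Across the 7 libraries the members did not move as a block. Pearson's r of log2 CPM was 0.89 between FAF1 and UBXN4, 0.88 between FAF1 and PLAA and 0.83 between UBXN4 and FAF2. It was -0.03 between VCP and NPLOC4, -0.65 between VCP and UBXN1 and -0.91 between FAF2 and UBXN1. These values describe 7 libraries that share treatments and fall into 2 tables, and the gap between tables enters every one of them. Among 8630 transcripts with a mean of 50 or more reads, those most like VCP over the 7 libraries were NOLC1 (r = 0.993), MGAT2 (0.991), TAF13 (0.981), TXLNG (0.977) and CA13 (0.973). Those most like NPLOC4 were ALDH1B1 (0.988), VGLL3 (0.986), PSMB3 (0.984), FAT3 (0.981) and FBXW4P1 (0.981). These are the highest of 8630 values over 7 points.

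Some members share their locus with other genes, and the counting is not stated to use strand. In GENCODE release 29 NPLOC4 overlaps the protein-coding gene TSPAN10 and PLAA overlaps IFT74, both on the opposite strand. NSFL1C overlaps SIRPB2 on its own strand. UFD1 overlaps 3 and FAF1 overlaps 4 non-coding genes on the opposite strand. VCP, FAF2, UBXN1 and UBXN4 overlap no annotated gene. In bulk RNA, fewer cells of a kind and less RNA per cell cannot be told apart.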

How the data were processed

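Per the labels' protocols, the TruSeq Ribo Profile kit was used on TRIzol-extracted RNA. Bowtie2, cutadapt, bedtools, FastQC and build hg19 are named in the submitters' processing notes. How reads were counted, and on which annotation release, is not given in the sources used here. Deposited values are the authors' read counts per RefSeq transcript, not normalized. Log2 ratios and p-values by the authors stand in the genotype table too and are printed for UFD1 only.

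Counts were tested with edgeR 4.0.16 (R 4.3.3; TMM, default filter, Benjamini-Hochberg) over 10368 transcripts with table, genotype and treatment as terms, common dispersion 0.0192, checked on simulated counts. DESeq2 1.42.0 was an alternative. Correlations used a prior count of 2. Single libraries were compared by ratios of TMM-scaled counts, whose exact conditional 95% intervals cover counting error only. The 2-fold rule adds 5 counts and needs 50 reads in the higher library. Nothing says the libraries came from separate cultures, so p-values measure spread between these samples, which may be technical. All 9 members are reported. Partners are named where called, otherwise those with the largest change. One partner gene that this rule names is not reported here. Members, partner lists and tests were chosen with earlier results of these data known.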

Additional observations from a re-analysis of the deposited data

Results flagged for a closer look

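The UFD1 row of the genotype table (NM_005659.6) had ratios of GD to mock on opposite sides of 1 in the 2 genotypes. The log2 ratio was 0.16 in deficient cells, from 193 reads in GD and 199 in mock, where the 95% counting interval of the ratio, 0.912 to 1.37, held 1. It was -0.45 in WT cells, from 107 reads in GD and 168 in mock, with an interval of 0.567 to 0.936. Each is 1 pair of libraries, and the difference between the genotypes was not tested.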

How the results depend on the processing

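The labels carry no replicate numbers to use as a block, and table and genotype already set each GD library against its own mock. Under GD, edgeR called 2164 transcripts, and 4040 (shared transcripts) or 3934 (all) in the genotype table alone, where 4 members were called higher. In the 4 WT libraries it called 490, and 23 if treatment was the sole term, with 0 members called higher and 0 lower in both. Leaving out 1 library gave 494 to 4039 calls, with 0 to 4 members higher and 0 to 1 lower. No member changed direction under GD.

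For deficient over WT, DESeq2 called 222 transcripts, and the genotype table alone 1942 (shared) or 1614 (all), with 1 member higher in both. Leaving out 1 library gave 5 to 1938 calls, 0 to 1 members higher and 0 lower. FAF2 turned to 0.0053 with DESeq2's size factors, in edgeR and in DESeq2, and to 0.0011 in the genotype table alone with shared transcripts. With all transcripts of that table it stayed below 0, at -0.0023. With 1 library left out it ran from -0.00998 to 0.0075 (0.0011, 0.0017 and 0.0075 without stress GD, deficient GD or genotype WT GD), and UBXN1 from -0.082 to 0.145 (-0.082 and -0.062 without the last 2). FAF2's interaction turned to 0.013 with library totals. The interaction could not be fitted with a library left out. The cause was not tested.

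At 1.5-fold, TG was past the size in 2057 transcripts, GD in 2066, 2137 and 2016 (deficient, genotype WT, stress WT), and deficient over WT in 1130 under GD, with 1 member (UFD1), and 1161 under mock. The fit of 7 libraries called 1 member in TG. With library totals 683 of the GD calls were higher (30.9%), against 1011 (46.7%), as the median of all transcripts moved to -0.10. Few reads limit the stress row of UFD1 (0 to 10) and the rows of NSFL1C (2 to 52).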
